A study of Mus musculus with 6 samples.

Results

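The 44 genes described here encode the core of the DNA replication fork and of the origins that start it: the sliding clamp and its loaders, the replicative polymerases and primase, the single-strand binding complex, the enzymes of lagging strand processing, histone supply and chromatin assembly factors, GINS and Cdc45, the origin firing kinase, the origin recognition complex and fork protection factors. They were taken by name, out of 19057 genes named on the array, from a list chosen with earlier results of these data known. Every probe whose annotated symbol is a member was used. All 44 had a probe, 78 in total, and 38 had at least 1 probe detected on 3 or more of the 6 arrays, which was the condition for testing. RNA came from Sertoli cells, which line the seminiferous tubules and nurse the germ cells, sorted from 6-week-old mice by a Sox9-GFP label on a C57B6J/129SvEv background. The knockout group (cKO, 3 arrays) had the genotype Rb1 flox/-; Amh-Cre +, in which a Cre recombinase driven by the Amh promoter, active in Sertoli cells, acts on the floxed allele of the retinoblastoma gene while the other allele is already null. The control group (3 arrays) had the genotype Rb1 flox/- without Cre. Both groups therefore share the null allele, controls keep a single intact copy of Rb1, and effects of Cre and of Rb1 loss cannot be told apart. The labels do not say whether arrays stand for separate animals or pools, so a p-value measures only the spread between these arrays, which may be technical.

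During S phase the origin recognition complex marks start sites, on which the MCM helicase is loaded; the Cdc7 kinase with its partner Dbf4 then helps to join Cdc45 and GINS to it, which makes the active helicase. DNA polymerase alpha with primase lays short primers, polymerases epsilon and delta extend them while held by the Pcna clamp, which replication factor C loads, and Fen1 and Lig1 finish the lagging strand. Many of these genes are transcribed in late G1 and S phase under E2F factors, which the retinoblastoma protein holds in check, and Sertoli cells of adult mice are normally quiescent.

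Replication genes were higher in cKO nearly throughout, by modest amounts, and no single one passed the test. Of the 38 tested members, each read by its brightest tested probe, 37 had a positive difference (cKO minus control, normalised log2 intensity), with a median of 0.65 and a range from -0.25 for Orc3 to 1.60 for Gins1. The same sign was found for 61.3% of the 12277 tested genes, whose median was 0.12, so the members' median lay 0.52 above that of all genes. In 20 of the 38 the 3 cKO arrays all lay above the 3 controls, against 9.56% of all genes, and in 0 they all lay below, against 4.33%. Values over 1 on the log2 scale were found for 9 members, against 4.82% of all genes.

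None of the 38 had an adjusted p under 0.05 (limma, Benjamini-Hochberg over 21805 probes, smallest 0.157), where 0.195% of all genes were called as higher and 0% as lower. At an unadjusted p under 0.05 there were 16 members higher and 0 lower, against 5.96% and 1.81% of all genes. This count was 9 without cKO replicate 1 and 8 without cKO replicate 2, fits in which the share of all genes was not determined. In these fits 20 and 21 members did not overlap in the higher direction, against 11.8% and 12.2% of all genes. The filter could favour a gene that is bright in a single group, as for Prim1, detected on 3 cKO arrays and 1 control. Among the 36 members detected on all 6 arrays, 35 were positive and 19 did not overlap, against 8.54% of genes under that filter.

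**Figure D1:**
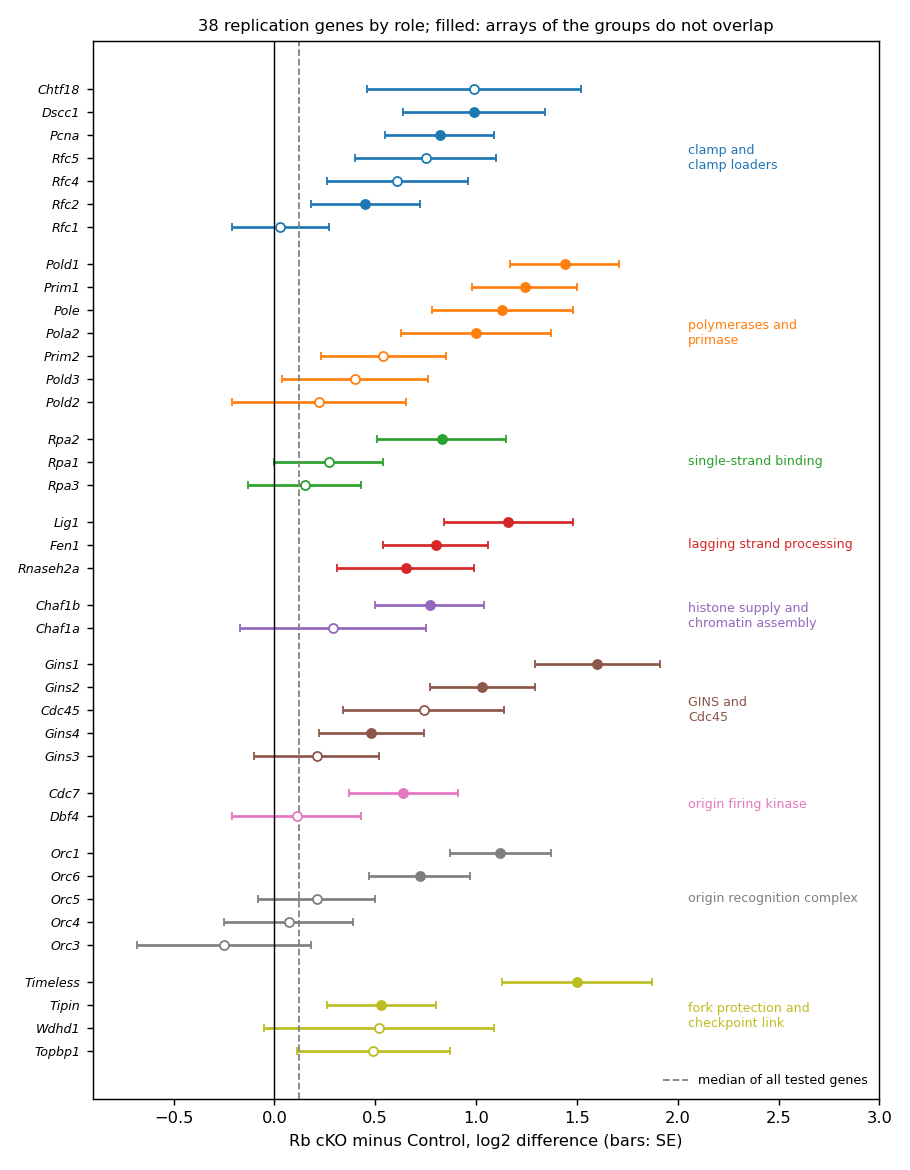
Difference between cKO and control arrays (log2, points) with its standard error (bars) for the 38 tested replication genes, grouped by role; filled points are genes whose 3 cKO arrays all lay above the 3 controls, and the dashed line is the median of all tested genes (0.12). Only Orc3 lies below 0, and the spread within each complex is wide: Orc1 stands at 1.12 and Orc4 at 0.07.

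The check of the targeted gene and of the arrays is brief. Rb1 probe ILMN_2861644 stood at 10.37, 9.92 and 9.36 in the cKO arrays and at 10.53, 11.08 and 10.98 in the controls, a difference of -0.98 ± 0.34 (SE, adjusted p 0.668). Its second probe differed by -1.22 ± 0.32 (adjusted p 0.399), neither passed, and where the probes lie relative to the floxed part was not determined. From 43.0% to 53.5% of probes were detected per array, with 43 to 44 beads per probe at the median. The arrays of cKO replicate 1 and control replicate 3 (the outlying arrays) stood apart, at -113.9 and 110.2 on a first principal component holding 58.9% of the variance, against -34.3 to 31.4 for the other 4. Without them the members' median was 0.37, with 32 of 38 positive, against -0.03 and 46.3% over all genes. The difference of 21 of the 38 members moved by over 1.5 times without these 2 arrays, downward in 19, and for those named below that value stands beside the main one.

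Promoters were searched because the members' differences shared a direction. RefSeq promoters (GRCm38.p6, 250 bases before to 50 after a transcript start) were held for 36 of the 44 genes, as 44 windows. The E2F motif was searched as TTTCGCGC, TTTGGCGC, TTTCCCGC and TTTGCCGC on both strands; these forms differ from each other inside the motif and so cannot match at the same place on the same strand, though matches on opposite strands can overlap in part. A match was found in 10 of the 44 windows, against 2.26% of all 32851 windows of that length, and in 10 of 36 member genes against 2.6% of all genes with a window. Among tested members with a window 7 had a match and 23 had none, where 4.25% of tested genes with a window had a match. The median difference was 0.49 over the 7 tested members with a match and 0.65 over the 23 without, and whether these differ was not tested. Gins1, Gins2, Gins4, Pole, Prim2, Dscc1, Rfc2 and Tipin had no window and are in neither group. Counting only TTTCGCGC and TTTGGCGC, 6 windows matched, against 0.813% of all windows, and the median was 1.12 over the 3 tested members with a match (Lig1, Orc1 and Topbp1) and 0.64 over the other 27. A match is a description of these letters and not a binding site. The sequences below are of members that hold a match, none of which passed the test. Orc1 and Orc3, subunits of the same complex at 1.12 and -0.25, each hold a match upstream. Lig1 and Pold1, at 1.16 and 1.44, hold theirs just past the start. Orc1 is the 250 bases upstream of its start (chr4:108579204-108579453, + strand), Orc3 the same (chr4:34614943-34615192, - strand), and Lig1 (chr7:13278841-13278870, + strand, the second of 3 annotated starts) and Pold1 (chr7:44548766-44548795, - strand) are 30 bases around the match. Capitals mark the match, which begins at base -27 for Orc1, -41 for Orc3, 27 for Lig1 and 40 for Pold1, counted from the start. Orc1 and Lig1 hold the form TTTCGCGC, and Orc3 and Pold1 the form TTTCCCGC, on either strand.
Orc1: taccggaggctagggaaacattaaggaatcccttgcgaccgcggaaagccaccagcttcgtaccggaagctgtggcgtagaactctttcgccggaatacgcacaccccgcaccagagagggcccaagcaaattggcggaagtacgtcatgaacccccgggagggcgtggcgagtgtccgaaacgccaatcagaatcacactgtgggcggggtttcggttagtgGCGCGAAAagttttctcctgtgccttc
Orc3: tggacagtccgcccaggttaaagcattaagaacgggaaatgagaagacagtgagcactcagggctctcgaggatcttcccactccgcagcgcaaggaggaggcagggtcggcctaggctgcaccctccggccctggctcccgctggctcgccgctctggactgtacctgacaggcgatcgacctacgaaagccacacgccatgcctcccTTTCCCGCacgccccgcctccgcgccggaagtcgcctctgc
Lig1: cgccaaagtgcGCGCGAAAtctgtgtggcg
Pold1: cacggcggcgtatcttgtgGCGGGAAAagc

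The polymerases and primase held the member with the smallest p. Of 9 genes 7 were tested, all 7 were positive and 4 did not overlap, with a median of 1.00 (0.63 to 1.21 when 1 array was left out, 0.64 without the 2 arrays that stood apart). Beside these counts, and those of each group and list below, 61.3% of all tested genes were positive and 9.56% did not overlap in the higher direction. Pold1, the catalytic subunit of polymerase delta, read 10.10, 10.19 and 9.76 in cKO (replicates 1, 2 and 3, an order kept below) and 8.81, 8.67 and 8.28 in controls. The groups were well apart, with a gap wider than the range within either, and the difference was 1.44 ± 0.27 (SE), or 2.70-fold, with an adjusted p of 0.157. Prim1, the catalytic primase subunit, read 6.01, 6.55 and 6.16 in cKO and 5.07, 5.08 and 4.86 in controls, where it was near background. Its difference was 1.24 ± 0.26 (adjusted p 0.224), and 0.79 in the deposited log2 values. Pole, the catalytic subunit of polymerase epsilon, read 9.47, 9.03 and 9.33 in cKO and 8.58, 8.34 and 7.50 in controls. The lowest control, replicate 3, widened that difference of 1.13 ± 0.35 (adjusted p 0.558), which was 0.72 without the 2 arrays that stood apart. Pola2, the regulatory subunit of polymerase alpha, read 8.42, 8.66 and 8.26 in cKO and 7.86, 7.78 and 6.70 in controls. Here too control replicate 3 was far below the other controls: the difference was 1.00 ± 0.37 (adjusted p 0.704), 0.63 without that array and 0.64 without both outlying arrays.

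The remaining subunits had smaller differences. Prim2, the large primase subunit, was at 0.54 and the accessory subunit Pold3 at 0.40, both with overlapping arrays; without both outlying arrays they were at 0.23 and -0.08. Pold2, the second subunit of polymerase delta, read 9.13, 9.35 and 9.26 in cKO and 9.93, 8.90 and 8.24 in controls, so the cKO values lay inside the control range, with a difference of 0.22 ± 0.43. Without control replicate 3 it was -0.17, and -0.11 without both outlying arrays. Whether Pold1 and Pold2 differed from each other was not tested. Pola1, the catalytic subunit of polymerase alpha, and Pole2, a second subunit of polymerase epsilon, had no tested probe.

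GINS and Cdc45, the partners that turn the MCM ring into a moving helicase, were all tested: 5 of 5 were positive and 3 did not overlap, with a median of 0.74 (0.34 without control replicate 3, 1.10 without control replicate 1, 0.31 with both outlying arrays left out). Gins1 read 9.64, 9.01 and 9.20 in cKO and 7.64, 8.06 and 7.34 in controls. The lowest cKO array lay well above the highest control, and the difference, 1.60 ± 0.31 or 3.04-fold, was the largest of any member (adjusted p 0.164). Gins2 read 8.99, 8.66 and 8.46 in cKO and 7.83, 7.66 and 7.53 in controls by its brightest probe, 1.03 ± 0.26 (adjusted p 0.372) with no overlap. Gins4 was at 0.48 without overlap, and Gins3 at 0.21 and Cdc45 at 0.74 with overlap; without both outlying arrays these were 0.31, 0.05 and 0.30. For Cdc45 the cKO arrays were tightly placed, at 8.69, 8.50 and 8.65, while the controls spread over 8.59, 7.94 and 7.08.

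The clamp and its loaders were higher with a median of 0.75 over 7 tested of 8 genes (0.48 without control replicate 3, the lowest with 1 array left out, and 0.34 without the 2 arrays that stood apart), 3 of them without overlap. Pcna, the ring that holds polymerases on DNA, read 8.36, 8.13 and 7.72 in cKO and 7.13, 7.32 and 7.32 in controls. The controls were close together and all below the cKO arrays, with a difference of 0.82 ± 0.27 (adjusted p 0.633). Dscc1, part of the alternative clamp loader that acts in sister chromatid cohesion, read 7.84, 7.78 and 7.08 in cKO and 7.07, 6.41 and 6.26 in controls. Its lowest cKO and highest control arrays nearly touched, and the difference was 0.99 ± 0.35 (adjusted p 0.676). Chtf18, the large subunit of that loader, was also at 0.99, but with overlap and a control replicate 3 at 6.92 against 8.95 and 8.58 for the other controls; it was 0.38 without that array and 0.24 without both outlying arrays. Among the classical loader subunits, Rfc5 was at 0.75, Rfc4 at 0.61 and Rfc2 at 0.45, and without both outlying arrays at 0.30, 0.40 and 0.34. The large subunit Rfc1 had the largest p of all members: it read 9.68, 9.84 and 9.94 in cKO and 9.71, 9.90 and 9.77 in controls, a difference of 0.03 ± 0.24 (0.09 without both outlying arrays). These 6 values spanned a narrow range with no order by group. Rfc3 was detected on 1 cKO and 1 control array and was not tested.

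Lagging strand enzymes were measured by 3 of 4 genes, all without overlap between groups (median 0.80, 0.69 to 0.96 when 1 array was left out). Lig1, the ligase that seals Okazaki fragments, read 9.62, 9.55 and 9.39 in cKO and 8.88, 8.37 and 7.84 in controls. Every cKO array was above every control, with a difference of 1.16 ± 0.32, or 2.23-fold (adjusted p 0.441). Fen1, the flap nuclease that removes primer remnants, read 10.41, 10.30 and 9.88 in cKO and 9.32, 9.50 and 9.36 in controls. The difference was 0.80 ± 0.26 (adjusted p 0.619), and its controls were among the tightest of the members. Rnaseh2a, the catalytic subunit of the nuclease that cuts RNA in RNA-DNA hybrids, was at 0.65 ± 0.34, at 0.34 without control replicate 3 and at 0.28 without both outlying arrays. Dna2, a helicase and nuclease, was detected on no array.

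The 3 subunits of RPA, which coats single-stranded DNA, were all tested and had a median of 0.27 (0.13 without cKO replicate 1, 0.39 without cKO replicate 3, 0.08 with both outlying arrays left out). Rpa2, the middle subunit, read 7.61, 8.26 and 8.62 in cKO and 7.43, 7.39 and 7.20 in controls by its brightest probe. Its cKO replicate 1 was only just above the controls, and the difference was 0.83 ± 0.32 (adjusted p 0.732). Rpa1 was at 0.27 ± 0.27 and Rpa3 at 0.15 ± 0.28, both with overlap, and at 0.08 and -0.03 without both outlying arrays. Of the chromatin assembly and histone supply genes, Chaf1b, a subunit of the CAF-1 complex that places histones on new DNA, read 10.81, 10.97 and 10.58 in cKO and 10.01, 10.31 and 9.75 in controls. That difference was 0.77 ± 0.27 without overlap (adjusted p 0.678). Chaf1a, its largest subunit, was at 0.29 ± 0.46 with overlap and at -0.0057 without cKO replicate 3. Slbp, which binds the stem-loop of histone messages, was not well above background on any array.

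Origin recognition genes divided within a single complex. Of 6 genes 5 were tested, 4 were positive and 2 did not overlap, with a median of 0.21 that was -0.03 without the 2 arrays that stood apart. Orc1, the subunit whose amount varies through the cell cycle, read 6.74, 6.68 and 6.40 in cKO and 5.63, 5.55 and 5.29 in controls. Both groups were tight and well apart, with a difference of 1.12 ± 0.25, or 2.17-fold (adjusted p 0.273), and 0.74 in the deposited log2 values. Orc6, the smallest subunit, read 11.16, 10.98 and 10.80 in cKO and 10.15, 10.16 and 10.48 in controls, 0.72 ± 0.25 without overlap (adjusted p 0.678). Orc4 read 6.75, 7.06 and 6.67 in cKO and 6.47, 7.32 and 6.50 in controls. Its groups lay on top of each other, at 0.07 ± 0.32, and its 2 dimmer probes gave 0.01 and 0.16. Orc5 was at 0.21 ± 0.29 and Orc3 at -0.25 ± 0.43, also with overlap, and Orc2 was not tested. Without both outlying arrays Orc4, Orc5 and Orc3 were at -0.03, -0.10 and -0.84. Differences between subunits were not tested.

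**Figure D2:**
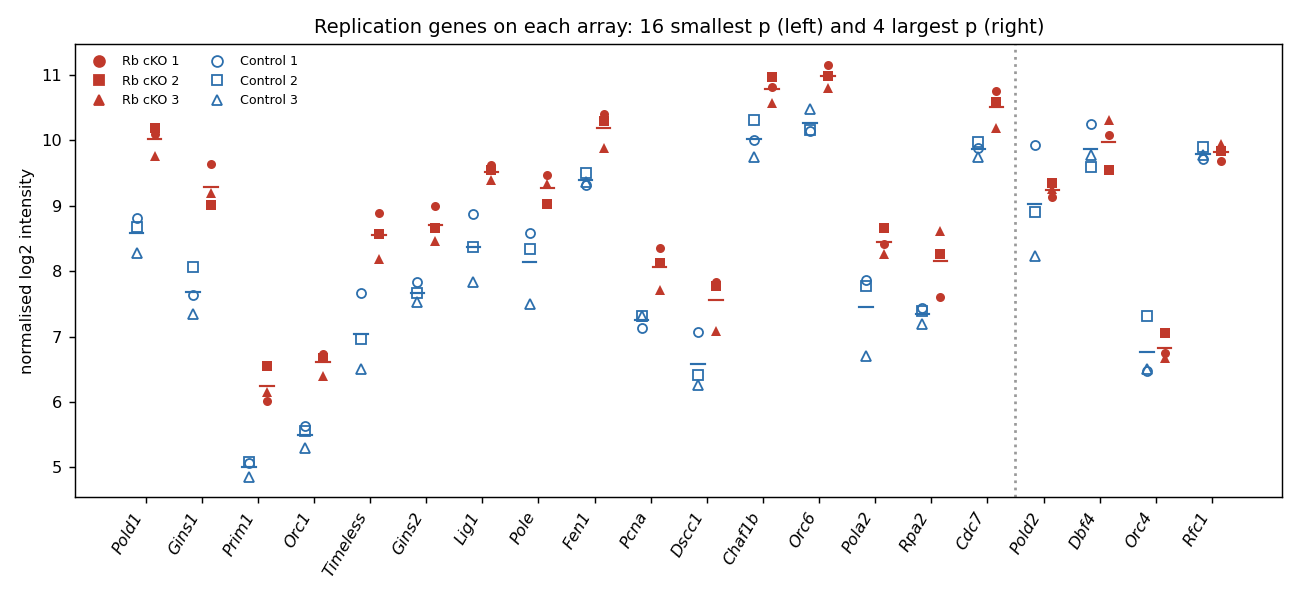
Normalised log2 intensity on each array for the 16 replication genes with the smallest p (left of the dotted line) and the 4 with the largest p (right); filled red symbols are cKO arrays, open blue symbols controls, symbol shape gives the replicate number and short lines the group means. In the 16 genes on the left all cKO arrays lie above all controls, as for Pold1 (9.76 to 10.19 against 8.28 to 8.81), while in Rfc1, Orc4, Dbf4 and Pold2 the groups overlap.

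Both genes of the origin firing kinase were tested, and the difference between them was not. Cdc7, the kinase itself, read 10.75, 10.59 and 10.19 in cKO and 9.88, 9.98 and 9.74 in controls, with no overlap and a difference of 0.64 ± 0.27 (adjusted p 0.763). Dbf4, its activating subunit, read 10.08, 9.55 and 10.32 in cKO and 10.25, 9.59 and 9.77 in controls. Its values were mixed between groups, at 0.11 ± 0.32, and its sign turned without cKO replicate 3 (-0.06); it was 0.02 without both outlying arrays. Fork protection genes were positive in 4 of 4, with a median of 0.53 (0.80 without cKO replicate 1, 0.84 with both outlying arrays left out). Timeless, which steadies the paused fork, read 8.89, 8.57 and 8.19 in cKO and 7.67, 6.96 and 6.51 in controls. The groups did not overlap and the difference, 1.50 ± 0.37 or 2.84-fold, was second in size only to that of Gins1 (adjusted p 0.338). Tipin, its binding partner, was at 0.53 ± 0.27 without overlap. The checkpoint and origin firing factor Topbp1 was at 0.49, and the polymerase alpha tether Wdhd1 at 0.52 on a probe detected on 2 arrays of each group, both with overlap, and at 0.07 and 1.21 without both outlying arrays.

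Several members were read by more than 1 tested probe, and these did not always tell the same story. The 10 such genes had 17 dimmer tested probes, of which 6 had the opposite sign to the brightest (35.3%, against 32.4% over all tested genes) and 3 had the same sign at under 0.5 times its size. Prim2, Rfc4, Orc5 and Tipin gave similar values on both probes, with Prim2 at 0.72 and Rfc4 at 0.69 on the dimmer probe. Gins2, at 1.03 on its brightest probe, gave -0.28 and -0.32 on the others, Rpa2 gave -0.16 and -0.37, and Lig1 gave 0.11 and 0.49. Rfc2 gave 0.48 and 0.50 on 2 dimmer probes and -1.61 on the third, while Rfc5 gave 0.59 and -0.09. Over all 55 tested member probes 48 were positive and 24 did not overlap in the higher direction, against 8.04% of all tested probes.

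The members were not alike on all arrays of a group. Relative to the control mean, their median stood at 0.80, 0.70 and 0.47 in the cKO arrays and at 0.22, 0.08 and -0.31 in the controls, while over all tested genes it was 0.26, 0.14 and 0.03, and 0.07, 0.12 and -0.22. Replicate 1 was the highest of the 3 cKO arrays for 24 of 38 members and replicate 3 the lowest for 27. Among controls, replicate 1 was the highest for 25 and replicate 3 the lowest for 28. Arrays with a shared number thus deviated together in the members as they did over all probes.

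Other replication genes were set beside the members from separate lists. Licensing and MCM helicase genes had a median of 1.25 over 10 tested of 11, all positive and 8 without overlap. Among them Cdt1, which loads the helicase at origins, passed the test, with a rise of 2.16 ± 0.27 (adjusted p 0.0484), and it was the only gene of these lists to do so. The call did not hold with the replicate block (adjusted p 0.0907) or with any 1 array left out (0.0748 to 0.267), while the difference stayed between 2.04 and 2.28; it was 1.95 without both outlying arrays (adjusted p 0.135). In all, the call was lost under 12 of 15 alternatives. The helicase subunits Mcm2 and Mcm4 were at 2.36 ± 0.42 and 1.29 ± 0.25 (adjusted p 0.124 and 0.157). Deoxynucleotide supply genes had a median of 0.76 over 8 of 9, with 7 positive and 3 without overlap, and with Rrm1, Tyms and Tk1 at 0.86, 1.00 and 1.21. Without both outlying arrays the medians of these 2 lists were 1.26 and 0.43, and Rrm1 was at 0.53 and Tyms at 1.57. A list of 19 further replisome genes, such as the small polymerase subunits Pole3 and Pole4 and the topoisomerase Top1, had a median of 0.07 over 17 tested, with 10 positive, 2 higher and 2 lower without overlap. Over all tested genes 61.3% were positive, and 9.56% were higher and 4.33% lower without overlap. In it Clspn, the checkpoint adaptor at the fork, was at 1.36 ± 0.30 (adjusted p 0.264) and Rnaseh2b at 0.71 ± 0.26. Rbbp4, the histone-binding CAF-1 subunit that also binds the retinoblastoma protein, was lower in cKO on every array, at -1.20 ± 0.29 (adjusted p 0.336).

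**Figure D3:**
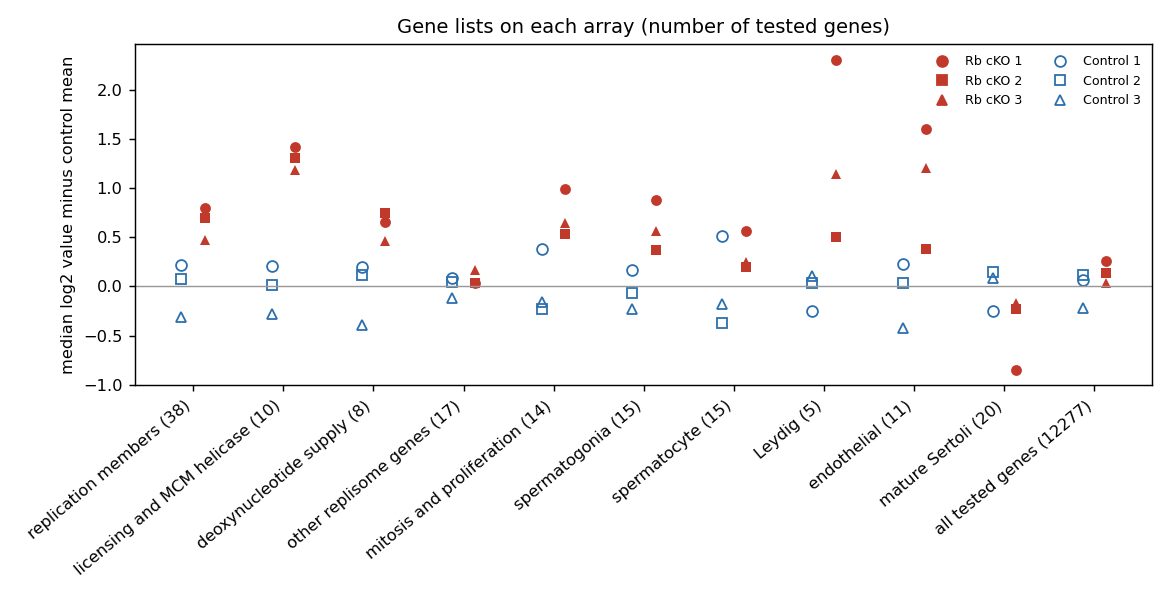
Median over each gene list of the log2 value minus the control mean, for each of the 6 arrays; red filled symbols are cKO, blue open symbols controls, and the number of tested genes is in brackets. Replication members sit at 0.47 to 0.80 on cKO arrays and -0.31 to 0.22 on controls, the list of other replisome genes shows no such gap, and lists of Leydig and endothelial genes are also higher in cKO.

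Markers of the sorted cells and of other testis cells are given beside the replication genes. The defining Sertoli genes Sox9, Cldn11 and Fshr were detected on all 6 arrays. The Sertoli list had a median of -0.44 over 20 tested of 24 genes, 19 of them negative, and of -0.21 without cKO replicate 1. In 2 of the 20, Sox9 at -0.39 and Dhh at -0.52, all cKO arrays lay below all controls, against 4.33% of all tested genes. Sox8 was at -1.04 and Trf at -2.54, both with overlap. Trf read 4.57, 7.77 and 9.97 in cKO, lowest in replicate 1, and 9.64, 9.19 and 11.10 in controls. The summed linear level of the Sertoli list was 91923 to 111155 on cKO arrays and 105682 to 123928 on controls. Mitosis and proliferation genes had a median of 0.77 over 14 tested of 22, with 12 positive and 6 without overlap (Anln 1.02, Mad2l1 0.86, and Birc5 0.85 on its brightest probe but 0.32 and 0.03 on 2 dimmer ones), and summed to 12730 to 18274 in cKO and 8398 to 12568 in controls. Ccna2, Ccnb2, Bub1, Kif20a, Cenpe and Ube2c of that list were detected on no array.

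Dividing germ cells also express replication genes. The medians of germ cell marker lists, from spermatogonia to spermatids, were positive as well. Spermatogonia markers had a median of 0.67 over 15 tested of 20, with 11 positive and 4 without overlap, and a summed level of 6859 to 8709 in cKO and 6184 to 7504 in controls. Dppa4 was at 1.23 (0.46 without both outlying arrays) and Dazl at 0.90, both with overlap. The 4 negative genes were Etv5 at -2.18, Utf1 at -0.66, Uchl1 at -0.46 and Id4 at -0.12, all with overlap. Etv5 read 4.45 in cKO replicate 1, against 8.19 and 9.89 in cKO replicates 2 and 3. Ret was detected on all 3 cKO arrays and on no control, and was at least 1.57-fold higher in cKO, the mean of the cKO arrays set against the dimmest detected signal of each control array; at that bound the list's median was 0.65. Among markers of undifferentiated spermatogonia, Gfra1, Id4, Sall4 and Uchl1 were detected on all 6 arrays, and Zbtb16, Nanos2, Nanos3 and Pou5f1 on none. Spermatocyte genes had a median of 0.34 (15 of 20; sums 85125 to 101347 and 65178 to 94544) with Sycp3 and Dmc1 undetected, and spermatid genes of 0.36 (17 of 18; sums 143193 to 186139 and 126602 to 183405). With 1 array left out these medians ran from 0.20 (without control replicate 2) to 0.64 (without control replicate 1), and from 0.16 (without control replicate 3) to 0.63 (without control replicate 1). Of the genes with a probe, 15 of 19 spermatocyte and 17 of 17 spermatid genes were detected on all 6 arrays. Of the tested genes 13 of 15 and 13 of 17 were positive. In 0 and 1 of them all cKO arrays lay above all controls, against 9.56% of all tested genes. Markers of cells outside the germ line had positive medians too. Leydig genes had a median of 1.26 over 5 of 8 (sums 2326 to 8616 in cKO, 1196 to 2982 in controls), and 0.73 without cKO replicate 1. Star, of that list, was detected on no control array and was at least 3.11-fold higher in cKO by the same bound. Star and Ret passed the filter through their cKO arrays alone, which favours a higher cKO reading. Ret is among the spermatogonia genes counted as positive and without overlap. Endothelial genes had 0.98 over 11 of 14 (1838 to 4621 and 584 to 943), and 0.62 without cKO replicate 1; Robo4 was at 3.69 on its brightest probe and at 0.23 and 0.31 on 2 dimmer ones. Peritubular genes had 0.77 over 7 of 10 (13954 to 23662 and 10344 to 12696; Acta2 1.81), and leukocyte genes 0.68 over 12 of 20 (9172 to 9446 and 7174 to 10674), and 0.38 without control replicate 3. Of the tested Leydig, endothelial and peritubular genes, 4 of 5, 10 of 11 and 6 of 7 were positive. In 1 (Star), 6 and 3 of them all cKO arrays lay above all controls, against 9.56% of all tested genes. Of the 12 leukocyte genes 11 were positive and 6 did not overlap in the higher direction, such as Cd74 at 1.70, while the macrophage receptor Mrc1, picked out once its values were known, stood at -0.83 with all cKO arrays below all controls (-0.49 without cKO replicate 1). Ptprc and Itgam were not detected. None of these marker genes passed the test in the main fit, where Robo4 came closest (adjusted p 0.0514). Under 4 of the alternatives Robo4 passed (smallest adjusted p 0.019). It did not with the replicate block (0.109) or with any 1 array left out (0.0684 to 0.287). Without the 2 arrays that stood apart the medians were 0.49 for mitosis, 0.29 for spermatogonia, 0.18 for spermatocyte, 0.31 for spermatid, 1.09 for Leydig, 0.47 for endothelial, 0.51 for peritubular, 0.33 for leukocyte and -0.22 for Sertoli genes, against 0.37 for the replication members. The part of other cells in the members' differences was not tested, and in these bulk samples a change in the number of cells of a type and in RNA per cell cannot be told apart.

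**Figure D4:**
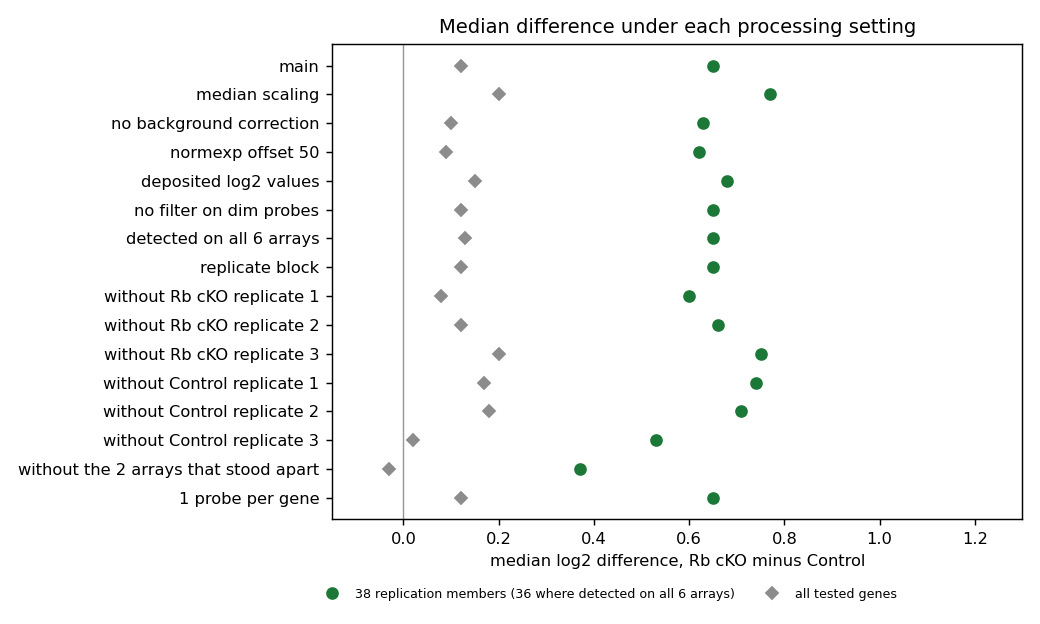
Median log2 difference over the tested replication members (green circles) and over all tested genes (grey diamonds) under each processing setting. The members' median runs from 0.37 without the 2 arrays that stood apart to 0.77 with median scaling, above that of all genes (-0.03 to 0.20) in each setting.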

How the data were processed

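The 6 arrays gave 1 table each. Per the file headers, the deposited tables hold a mean intensity per probe, a count of beads and a detection score from 0 to 1; per the submitters' processing notes BeadStudio was used. The deposited series table holds log2 values, scaled to an upper quantile of each array and centred probe by probe, as a match to the scanner values showed. That match gave 45281 of 45281 probes their ID (largest distance 0.000688, next probe at 0.00424 or more), and 34885 of them had a single annotated symbol.

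Intensities were corrected and quantile-normalised with neqc (limma 3.58.1, R 4.3.3, offset 16). Probes that scored above 0.95 on 3 or more arrays, counted over all 6, were tested by lmFit and eBayes (two-sided, group as the only term, Benjamini-Hochberg over 21805 probes, threshold 0.05). The fit was run on simulated data whose noise was independent between arrays and probes. That run cannot show how its p-values behave where arrays deviate together or stand apart. A gene was read by its brightest tested probe. Named genes were all members, with values on each array for the 16 smallest and 4 largest p, and up to 3 genes of each other list. Members and lists were chosen with earlier results of these data known. Deviations of same-numbered arrays from their group means correlated at 0.262, 0.41 and 0.473, so the numbers may stand for pairs, on these correlations alone. The main fit, its standard errors and its p-values did not use these pairs. A fit with the replicate number as a block is an alternative, in which 0 probes were called as higher. Other alternatives were median scaling, no background correction, offset 50, the deposited log2 values, other filters, 1 probe per gene, and leaving out arrays. The number of arrays limits the precision.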

Additional observations from a re-analysis of the deposited data

How the results depend on the processing

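No member passed an adjusted p of 0.05 under any of the 15 alternatives run (smallest 0.0918, with 1 probe per gene, against 0.157), and the members' median stayed positive and above that of all genes in each. It was 0.37 without the 2 arrays that stood apart, where the median over all genes was -0.03, and 0.53 to 0.75 with 1 array left out. Across settings the median over all genes ran from -0.03 to 0.20, and the members' median minus it from 0.40 to 0.58. Members at an unadjusted p under 0.05 numbered 9 without the 2 arrays that stood apart and 8 to 16 with 1 array left out. The share of all genes at that cut was determined only in the main fit. The count of all probes called as higher, 31, was 13 without background correction, 12 at offset 50, 1 without the filter on dim probes, 56 with 1 probe per gene, 6 without the 2 arrays that stood apart and 0 to 15 with 1 array left out; 0 probes were called as lower in each. With the replicate block it was 0 (smallest adjusted p of a member 0.144), while 20 members had an unadjusted p under 0.05, against 16; the block changed no member's call. Signs turned without the 2 arrays that stood apart for Pold2 (-0.11), Pold3 (-0.08), Rpa3 (-0.03), Orc4 (-0.03), Orc5 (-0.10) and the origin recognition median (-0.03). With 1 array left out, signs turned within the ranges of Orc4 (-0.08 to 0.35), Rfc1 (-0.03 to 0.10), Dbf4 (-0.06 to 0.33), Wdhd1 (-0.11 to 1.05), Chaf1a (-0.0057 to 0.68), Pold2 (-0.17 to 0.68), Orc3 (-0.59 to 0.07) and the median of other replisome genes (-0.03 to 0.25); none of these was called. Prim1 was 0.78 without background correction and 0.73 at offset 50, and Orc1 0.74 at offset 50. Promoter windows with a match were 6 rather than 10 with 2 motif forms. The cause of these shifts was not tested.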

Other observations

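Some dimmer probes of the members varied far more between arrays than between groups. The third dimmer probe of Rfc2 (ILMN_2424690) read 4.43, 5.35 and 10.19 in cKO (replicates 1, 2 and 3) and 7.76, 6.60 and 10.44 in controls, while the brightest Rfc2 probe stayed between 11.78 and 12.48. A dimmer probe of Rpa2 (ILMN_2602687) read 5.40, 5.56 and 8.34 in cKO and 6.48, 5.77 and 8.17 in controls, with replicate 3 highest in each group. For Gins2, probe ILMN_1246270 read 5.11, 8.17 and 8.96 in cKO against 8.06, 7.53 and 7.61 in controls, whereas the brightest probe read 8.46 to 8.99 and 7.53 to 7.83. Of the 6 dimmer member probes with a sign opposite to the brightest, 4 had cKO replicate 1 as the lowest cKO array, as did 948 of 1912 such probes over all genes. The genes Top2a and Cdk1 of the mitosis list, chosen after their values were seen, also had a low cKO replicate 1 on their brightest probes. Top2a read 5.04, 8.04 and 10.04 in cKO against 8.34 ± 0.72 (SD, n = 3) in controls, and Cdk1 read 7.55, 9.49 and 10.60 against 9.68, 9.54 and 10.68. A dimmer Top2a probe differed by 1.12 ± 0.37, where the brightest differed by -0.63 ± 1.14. Where these probes lie in their transcripts was not analysed here.

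In the deoxynucleotide supply list, Rrm2, the small subunit of ribonucleotide reductase, differed by 0.65 on its brightest probe but by 1.98 ± 0.30 (adjusted p 0.095) and 1.84 ± 0.38 (adjusted p 0.201) on 2 dimmer ones, chosen after their values were seen. The larger of these read 7.85, 7.38 and 7.16 in cKO and 5.83, 5.40 and 5.22 in controls, without overlap.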
